A study of Mus musculus with 12 samples.

Results

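The genes described are 10 markers and regulators of blood stem and progenitor cells, Cd34, Ly6a, Procr, Egfl7, Sox4, Cd48, Slamf1, Eng, Tek and Angpt1, taken by name from 22339 gene symbols listed in all 3 deposited tables. Each of the 10 had an entry in every table, so all were measured in all 12 RNA-sequencing libraries. Although the set is known for cell surface markers, Egfl7 and Angpt1 encode secreted proteins and Sox4 a nuclear transcription factor. The libraries came from cultured C57BL/6 mouse bone marrow and form 6 groups of 2. In the MLL-AF9 cotransduction, lineage-negative (Lin-) bone marrow cells received the fusion oncogene MLL-AF9 together with PRDM16, or MLL-AF9 together with PRDM16mut. The E2A-HLF cotransduction paired the fusion oncogene E2A-HLF with the same 2 forms, PRDM16 or PRDM16mut, again in Lin- cells. The MLL-AF9 stable cells were bone marrow cells that already carried MLL-AF9 and then received PRDM16 or PRDM16mut. All cells grew in IMDM with 15% FBS and 10 ng/ml each of IL3, IL6 and SCF, and were collected after 10 days of selection, by G418 with puromycin for the cotransductions and by puromycin for the stable cells. Every group thus carried a fusion oncogene and an introduced form of PRDM16, and no group lacked both forms. The labels give neither the change in PRDM16mut, nor the promoter that drives the introduced genes, nor whether the lines were clones or pools.

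Blood stem cells are recognised by combinations of surface proteins. In mice of this background they carry Sca-1 (Ly6a), the protein C receptor EPCR (Procr) and the SLAM receptor CD150 (Slamf1), and they lack or hold little CD48 and, in adults, CD34, which progenitors carry. Endoglin, the receptor TIE2 with its ligand angiopoietin-1, and EGFL7 serve both blood vessels and early blood cells, and Sox4 acts in lymphoid progenitors and in several leukaemias. PRDM16, a member of the PR domain family of zinc finger proteins, is known to be needed for normal blood stem cell maintenance.

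Levels are the deposited FPKM values, which count sequenced fragments relative to transcript length and to the library's mapped total. Tests compared log2(FPKM + 1) in PRDM16 libraries with PRDM16mut libraries of the same table, with limma over all genes with at least 1 FPKM in at least 2 of the 4 libraries, and genes with a Benjamini-Hochberg adjusted p under 0.05 were called. A fold change on this scale understates the change of genes with low FPKM. In the MLL-AF9 cotransduction 69.5% of 11071 tested genes were called (35.6% higher and 34% lower with PRDM16), in the E2A-HLF cotransduction 43.8% of 11010 (22.7% higher and 21.1% lower), and in the stable cells 6.36% of 10580 (4.2% higher and 2.16% lower). The balance of the stable calls was not firm: 66.0% of them were higher, but 51.6% with quantile normalization, 21.2% of 104 calls with no filter on low values, and 51.4% to 81.3% with single libraries left out. In the MLL-AF9 cotransduction the Prdm16 gene had 83.9 and 119 FPKM with PRDM16, against 29.5 and 30.1 FPKM with PRDM16mut (log2 fold change 1.71, limma, adjusted p = 4.18e-04). The E2A-HLF cotransduction had 49.2 and 56.5 FPKM with PRDM16 and 56.6 and 43.5 FPKM with PRDM16mut (0.09, adjusted p = 0.622), and the stable cells 77.9 and 80.0 FPKM with PRDM16 and 89.1 and 94.6 FPKM with PRDM16mut (-0.22, adjusted p = 0.0414). Kit, the stem cell factor receptor, lay between 5.29 and 47.5 FPKM in all 12 libraries. Rn45s, a ribosomal RNA entry, was listed at 0 in both PRDM16 libraries of the MLL-AF9 cotransduction and at 1542 and 1554 FPKM in its PRDM16mut libraries, and an entry listed at 0 can be a failed estimate in that table. Summed FPKM per library ran from 570872 to 683269, and depth in reads is unknown. Steps between low values give the relative depth of replicate 2 over replicate 1, which was 1.62 for PRDM16 with MLL-AF9 cotransduction and 0.916 to 1.17 in the other groups.

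The promoters of Procr, Cd48, Sox4, Eng and Tek are shown because these are the genes with a promoter entry among the 7 called higher with PRDM16 in the MLL-AF9 cotransduction. They run 5′ to 3′ on the gene's strand, from 250 bases before to 50 bases after the RefSeq start site in GRCm38.p6, a later build than the mm9 of the tables. They lie at chr2:155750967-155751266 (+) for Procr, chr1:171681742-171682041 (+) for Cd48, chr13:28953650-28953949 (-) for Sox4, chr2:32646345-32646644 (+) for Eng and chr4:94739039-94739338 (+) for Tek. Capitals mark letters that match the cores GATAA (GATA factors), AGGAAG (ETS factors), TGTGGT (RUNX factors) or CAGCTG (an E-box) on either strand.
Procr: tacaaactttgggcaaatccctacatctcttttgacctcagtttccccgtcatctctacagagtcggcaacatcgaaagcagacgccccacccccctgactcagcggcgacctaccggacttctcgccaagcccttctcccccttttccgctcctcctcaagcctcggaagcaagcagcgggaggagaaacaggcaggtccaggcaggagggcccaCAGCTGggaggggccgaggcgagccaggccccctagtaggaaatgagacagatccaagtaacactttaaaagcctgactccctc
Cd48: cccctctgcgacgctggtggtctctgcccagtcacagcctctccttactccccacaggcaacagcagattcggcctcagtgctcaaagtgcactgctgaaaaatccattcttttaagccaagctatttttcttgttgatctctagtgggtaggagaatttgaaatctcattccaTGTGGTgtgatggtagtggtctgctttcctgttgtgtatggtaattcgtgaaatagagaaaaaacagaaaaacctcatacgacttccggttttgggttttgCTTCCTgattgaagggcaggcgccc
Sox4: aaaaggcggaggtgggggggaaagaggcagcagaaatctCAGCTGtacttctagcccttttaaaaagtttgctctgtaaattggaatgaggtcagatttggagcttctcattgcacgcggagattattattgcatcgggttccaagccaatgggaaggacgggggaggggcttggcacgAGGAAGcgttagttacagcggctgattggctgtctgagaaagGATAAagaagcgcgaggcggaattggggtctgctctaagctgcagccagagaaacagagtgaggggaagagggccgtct
Eng: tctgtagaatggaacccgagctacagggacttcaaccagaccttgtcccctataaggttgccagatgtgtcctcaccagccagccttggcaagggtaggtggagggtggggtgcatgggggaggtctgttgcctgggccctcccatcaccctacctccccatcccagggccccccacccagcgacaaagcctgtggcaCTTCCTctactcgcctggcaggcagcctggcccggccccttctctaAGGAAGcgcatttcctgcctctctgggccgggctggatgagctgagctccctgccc
Tek: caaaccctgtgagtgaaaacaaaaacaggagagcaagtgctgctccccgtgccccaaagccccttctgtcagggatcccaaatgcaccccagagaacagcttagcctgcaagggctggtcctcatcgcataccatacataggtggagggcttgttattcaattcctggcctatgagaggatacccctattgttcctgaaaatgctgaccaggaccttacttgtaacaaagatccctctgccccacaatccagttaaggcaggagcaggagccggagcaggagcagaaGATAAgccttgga
The E-box core was matched in Procr and Sox4, the GATA core in Sox4 and Tek, the ETS core in Cd48, Sox4 and, at 2 places, Eng, and the RUNX core in Cd48. Among 32851 RefSeq promoters of the same length, 25.4% held GATAA, 35.4% AGGAAG, 16.8% TGTGGT and 16.3% CAGCTG. GAAGATGAG, a motif of the Evi1 family to which PRDM16 belongs, and TTACGTAA, a motif of PAR bZIP factors such as HLF, were in none of these 5 windows, and stood in 0.399% and 0.119% of all promoters. Such matches describe the letters alone. Of the 10 genes 8 had a promoter entry, and Ly6a and Angpt1 are named only.

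Egfl7 also hosts the microRNA miR-126, known in blood stem and progenitor cells, in an intron. Its mature sequence is shown because Egfl7 was called with E2A-HLF, with the seed (bases 2 to 8) in capitals, at chr2:26591402-26591423 (+) of GRCm38.p6.
mmu-miR-126a-3p: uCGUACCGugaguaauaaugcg
The tables list Mir126 at 0 in all 12 libraries, and these were made from oligo(dT)-primed RNA, so the levels of Egfl7 say nothing of the mature microRNA.

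In the MLL-AF9 cotransduction, PRDM16 cells held more transcript of most of these genes and less Cd34. Of the 10 genes 9 passed the filter on low values and 8 were called, 7 higher and 1 lower with PRDM16. The share is to be read against the 69.5% called over all genes, and Procr and Tek passed the filter only through the PRDM16 libraries. In the E2A-HLF cotransduction 8 passed and 8 were called, 2 higher and 6 lower with PRDM16, beside 43.8% of all genes. In the stable cells 5 passed and 1 was called, higher with PRDM16, beside 6.36% of all genes. The median log2 fold change of the genes that passed was 1.22, -0.83 and -0.05 in these 3 experiments, against 0.01 for all genes tested in each. Among the genes that passed, the PRDM16 and PRDM16mut libraries did not overlap for 8 of 9, 8 of 8 and 4 of 5, beside 86.3%, 73.7% and 60.6% of all genes tested. With no filter on low values 9, 8 and 1 of the 10 were called, beside 29.7%, 14.5% and 0.448% of all entries.

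**Figure D1:**
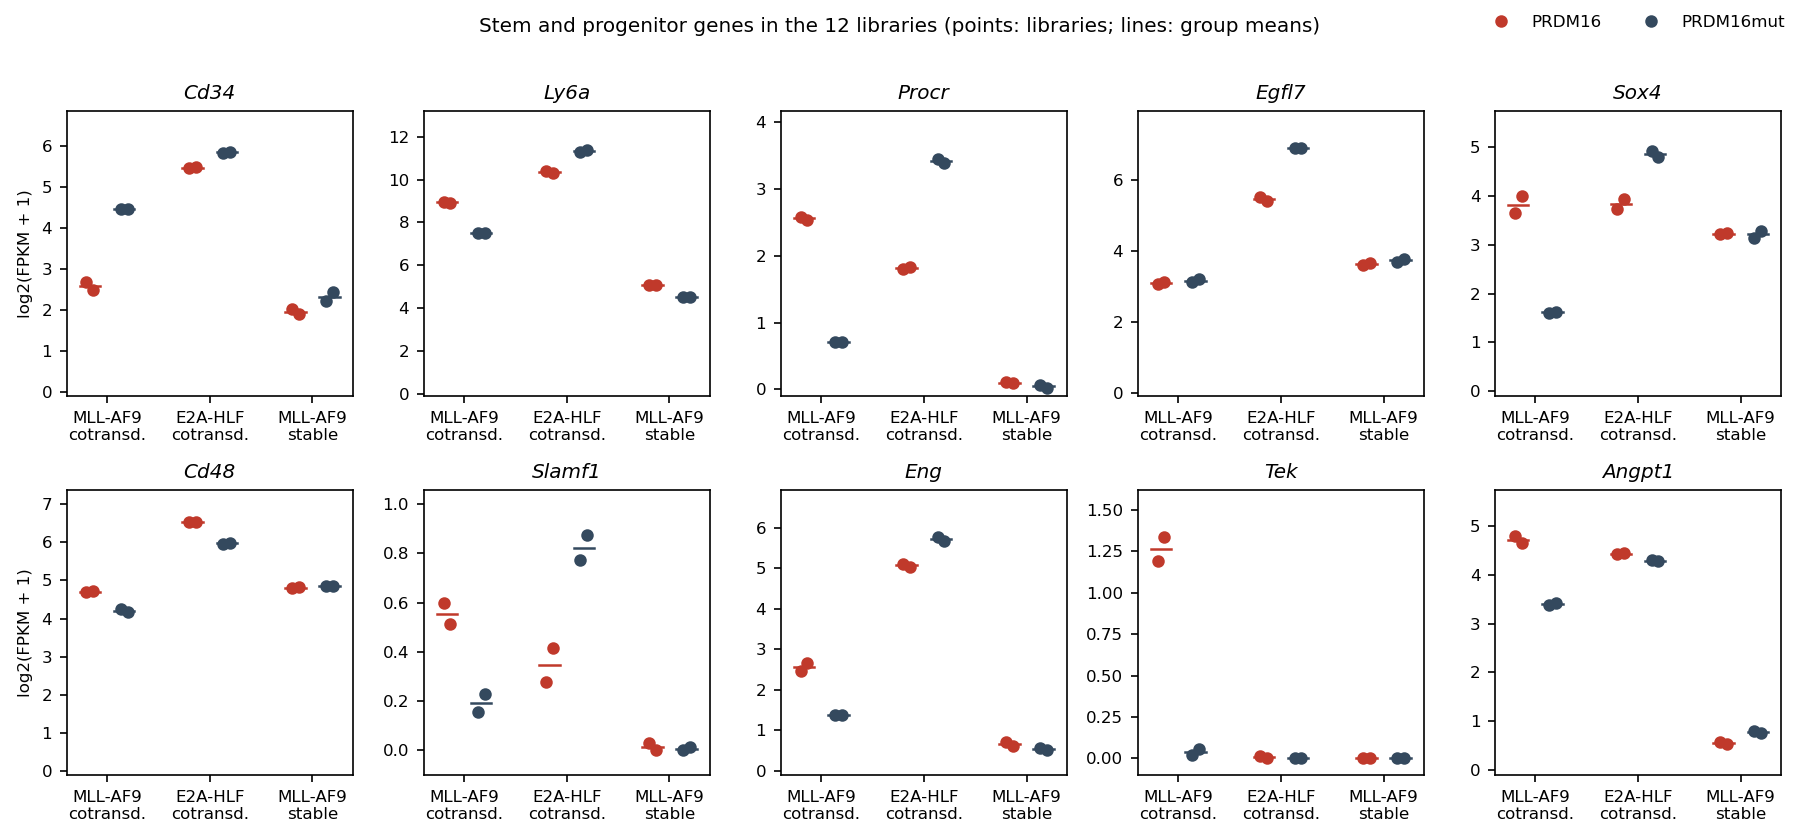
Levels of the 10 genes as log2(FPKM + 1), with 1 point per library and a line at each group's mean; every panel has its own vertical axis, and the 3 experiments come from separately normalized tables. Ly6a reaches its highest levels with E2A-HLF and PRDM16mut (2493 and 2674 FPKM), and Tek stands off the floor with MLL-AF9 and PRDM16 (1.28 and 1.53 FPKM).

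Among the surface markers of stem cells, Ly6a, which encodes the GPI-anchored protein Sca-1, was the most abundant and was called in all 3 experiments. It had 493 and 484 FPKM in the PRDM16 libraries of the MLL-AF9 cotransduction, against 182 and 183 FPKM in its PRDM16mut libraries. With E2A-HLF it had 1339 and 1258 FPKM in PRDM16 libraries, against 2493 and 2674 FPKM in PRDM16mut libraries. The stable cells had 32.7 and 32.6 FPKM with PRDM16, against 21.9 and 21.8 FPKM with PRDM16mut. PRDM16 libraries were thus the higher ones on both MLL-AF9 backgrounds and the lower ones with E2A-HLF, and the groups overlapped in no experiment. The log2 fold changes were 1.41 ± 0.0462 (SE, n = 2 per group, here and below) for the MLL-AF9 cotransduction (limma, Benjamini-Hochberg adjusted p = 1.30e-05), -0.99 ± 0.0828 for E2A-HLF (adjusted p = 2.96e-04) and 0.56 ± 0.0286 for the stable cells (adjusted p = 0.00172). Its group means spanned 118-fold. In cotransduced cells Ly6a lay above 98.0% to 99.9% of the entries of its table, and in stable cells above 83.5% to 88.1%. In bulk RNA, fewer cells that carry a transcript and less of it per cell cannot be told apart, and this holds for each gene here.

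Procr encodes EPCR, the endothelial protein C receptor, a surface marker of the most dormant blood stem cells. It had 5.01 and 4.83 FPKM in PRDM16 libraries of the MLL-AF9 cotransduction, against 0.643 and 0.643 FPKM in the PRDM16mut libraries. With E2A-HLF it had 2.49 and 2.55 FPKM in PRDM16 libraries, against 9.91 and 9.55 FPKM in PRDM16mut libraries. The stable cells held 0.0750 and 0.0641 FPKM with PRDM16, against 0.0523 and 0.0172 FPKM with PRDM16mut, too low for the test. The 2 groups were apart in each cotransduction, with PRDM16 on the high side for MLL-AF9 and on the low side for E2A-HLF. With MLL-AF9 Procr rose by 1.85 ± 0.0601 on the log2 scale (limma, Benjamini-Hochberg adjusted p = 1.29e-05), and its mean was 7.66 times that of PRDM16mut cells. It fell by 1.61 ± 0.0555 on the log2 scale with E2A-HLF (adjusted p = 9.10e-06).

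Cd34, a sialomucin of progenitor and endothelial surfaces, ran lower with PRDM16 in every experiment. Its FPKM was 5.38 and 4.59 in PRDM16 libraries of the MLL-AF9 cotransduction, against 20.8 and 21.1 in PRDM16mut libraries. In E2A-HLF cells it was 42.6 and 43.6 FPKM with PRDM16, against 55.9 and 57.0 FPKM with PRDM16mut. In stable cells it was 3.07 and 2.72 FPKM with PRDM16, against 3.62 and 4.40 FPKM with PRDM16mut. No pair of groups overlapped. Cd34 fell by 1.88 ± 0.0804 on the log2 scale in the MLL-AF9 cotransduction (limma, Benjamini-Hochberg adjusted p = 2.97e-05) and by 0.38 ± 0.0411 with E2A-HLF (adjusted p = 8.24e-04). In stable cells the log2 fold change of -0.36 ± 0.0913 missed the threshold (adjusted p = 0.0784), and it passed when the spread was shared over all 12 libraries (adjusted p = 0.0435). Gm16897, an overlapping predicted gene, had 0.151 and 0.127 FPKM with PRDM16 and 0.440 and 0.496 FPKM with PRDM16mut in the MLL-AF9 cotransduction, and unstranded reads cannot be split between such a pair.

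The SLAM receptors Cd48 and Slamf1 lie in 1 gene family, and stem cells are classically CD150-positive and CD48-negative. Cd48 had 24.8 and 25.3 FPKM in PRDM16 libraries of the MLL-AF9 cotransduction, against 18.1 and 16.9 FPKM in PRDM16mut libraries. It had 91.5 and 91.6 FPKM with PRDM16 in E2A-HLF cells, against 61.1 and 62.0 FPKM with PRDM16mut. In stable cells it had 26.7 and 27.2 FPKM with PRDM16, against 28.0 and 27.9 FPKM with PRDM16mut. PRDM16 libraries were the higher ones in both cotransductions and slightly the lower ones in stable cells. Cd48 rose by 0.50 ± 0.0596 on the log2 scale with MLL-AF9 (limma, Benjamini-Hochberg adjusted p = 0.00104) and by 0.56 ± 0.0398 with E2A-HLF (adjusted p = 1.52e-04), and its log2 fold change in stable cells was -0.05 ± 0.0295 (adjusted p = 0.307). It also spanned the least over the 6 groups, with 5.24-fold between the highest and the lowest mean.

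Slamf1, the CD150 gene, stayed under 1 FPKM in all 12 libraries and entered no main test. It had 0.515 and 0.427 FPKM in PRDM16 libraries of the MLL-AF9 cotransduction, against 0.115 and 0.172 FPKM in PRDM16mut libraries. With E2A-HLF it had 0.213 and 0.333 FPKM in PRDM16 libraries, against 0.708 and 0.832 FPKM in PRDM16mut libraries. In stable cells it was listed at 0.0206 and 0 FPKM with PRDM16, against 0 and 0.00868 FPKM with PRDM16mut. The groups of both cotransductions were apart, in opposite directions, and those of the stable cells overlapped. Without the filter the log2 fold change was 0.36 with MLL-AF9 (limma, Benjamini-Hochberg adjusted p = 0.0327) and -0.48 with E2A-HLF (adjusted p = 0.0669).

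Angpt1 encodes angiopoietin-1, the ligand of the receptor tyrosine kinase TIE2, which Tek encodes. Angpt1 had 26.8 and 24.0 FPKM in PRDM16 libraries of the MLL-AF9 cotransduction, against 9.37 and 9.70 FPKM in PRDM16mut libraries. With E2A-HLF it had 20.3 and 20.8 FPKM in PRDM16 libraries, against 18.6 and 18.4 FPKM in PRDM16mut libraries. Stable cells held 0.483 and 0.444 FPKM with PRDM16, against 0.736 and 0.682 FPKM with PRDM16mut, below the filter. The ligand was higher with PRDM16 in both cotransductions and the groups were apart in all 3 experiments. Its log2 fold change was 1.32 ± 0.0720 with MLL-AF9 (limma, Benjamini-Hochberg adjusted p = 6.28e-05) and 0.14 ± 0.0436 with E2A-HLF (adjusted p = 0.0409). The E2A-HLF call was lost with quantile normalization (adjusted p = 0.0809), with the replicate number as a block (adjusted p = 0.0948) and when any library was left out (adjusted p = 0.0956 to 0.181).

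Tek, the receptor, was detected above 1 FPKM in a single group. It had 1.28 and 1.53 FPKM in PRDM16 libraries of the MLL-AF9 cotransduction, against 0.0152 and 0.0416 FPKM in PRDM16mut libraries. With E2A-HLF it was listed at 0.0105 and 0 FPKM in PRDM16 libraries, against 0 and 0 FPKM in PRDM16mut libraries, and in stable cells it was listed at 0 in all 4 libraries. Of the 6 groups, PRDM16 cells of the MLL-AF9 cotransduction had both ligand and receptor above 1 FPKM in each library. The log2 fold change there was 1.22 ± 0.0760 (limma, Benjamini-Hochberg adjusted p = 9.69e-05), and 3.55 with a pseudocount of 0.1. Tie1, the partner receptor of TIE2, was also higher there, at 3.58 and 4.40 FPKM with PRDM16 and 0.727 and 0.615 FPKM with PRDM16mut (log2 fold change 1.57, limma, adjusted p = 1.00e-04). Tek and Tie1 passed the filter there only through the PRDM16 libraries, which fixed their direction.

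Eng encodes endoglin, a coreceptor for TGF-beta and BMP ligands on endothelium and early blood cells. It had 4.53 and 5.29 FPKM in PRDM16 libraries of the MLL-AF9 cotransduction, against 1.62 and 1.62 FPKM in PRDM16mut libraries. With E2A-HLF it had 33.6 and 31.7 FPKM in PRDM16 libraries, against 54.0 and 50.3 FPKM in PRDM16mut libraries. Stable cells held 0.651 and 0.521 FPKM with PRDM16, against 0.481 and 0.429 FPKM with PRDM16mut, below the filter. PRDM16 libraries were the higher ones with MLL-AF9 and the lower ones with E2A-HLF, and the groups were apart. Eng rose by 1.17 ± 0.0815 on the log2 scale with MLL-AF9 (limma, Benjamini-Hochberg adjusted p = 1.42e-04) and fell by 0.66 ± 0.0552 with E2A-HLF (adjusted p = 2.99e-04). Its neighbour Fpgs, which overlaps it in RefSeq and whose reads cannot be told apart from it where they overlap, had 11.8 and 13.7 FPKM with PRDM16 and 11.7 and 11.96 FPKM with PRDM16mut in the MLL-AF9 cotransduction.

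Egfl7 encodes a secreted protein of endothelial and early blood cells with EGF-like domains, and it was called in E2A-HLF cells and in neither MLL-AF9 experiment. In E2A-HLF cells it had 44.6 and 41.5 FPKM with PRDM16, against 118 and 118 FPKM with PRDM16mut. The MLL-AF9 cotransduction had 7.32 and 7.69 FPKM with PRDM16, against 7.66 and 8.25 FPKM with PRDM16mut, and here the groups overlapped. Stable cells had 11.1 and 11.7 FPKM with PRDM16, against 11.999 and 12.7 FPKM with PRDM16mut. Egfl7 fell by 1.44 ± 0.0492 on the log2 scale with E2A-HLF (limma, Benjamini-Hochberg adjusted p = 9.10e-06). Its log2 fold changes were -0.07 ± 0.0656 in the MLL-AF9 cotransduction (adjusted p = 0.354) and -0.10 ± 0.0464 in stable cells (adjusted p = 0.206).

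Sox4, the SoxC transcription factor, had the largest log2 fold change of the 9 genes tested in the MLL-AF9 cotransduction on the log2(FPKM + 1) scale, while with a pseudocount of 0.1 Tek (3.55) and Procr (2.76) exceeded it (2.61). It had 11.6 and 14.9 FPKM with PRDM16 there, against 2.05 and 2.09 FPKM with PRDM16mut. E2A-HLF cells had 12.2 and 14.2 FPKM with PRDM16, against 29.1 and 26.8 FPKM with PRDM16mut. In stable cells it had 8.31 and 8.43 FPKM with PRDM16, against 7.83 and 8.74 FPKM with PRDM16mut. The PRDM16 libraries were the high ones with MLL-AF9 and the low ones with E2A-HLF, and in stable cells the groups overlapped. Sox4 rose by 2.21 ± 0.120 on the log2 scale with MLL-AF9 (limma, Benjamini-Hochberg adjusted p = 6.16e-05), and its mean was 6.41 times that of PRDM16mut cells. It fell by 1.03 ± 0.0789 with E2A-HLF (adjusted p = 2.11e-04), and its log2 fold change in stable cells was 0.01 ± 0.0560 (adjusted p = 0.890).

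**Figure D2:**
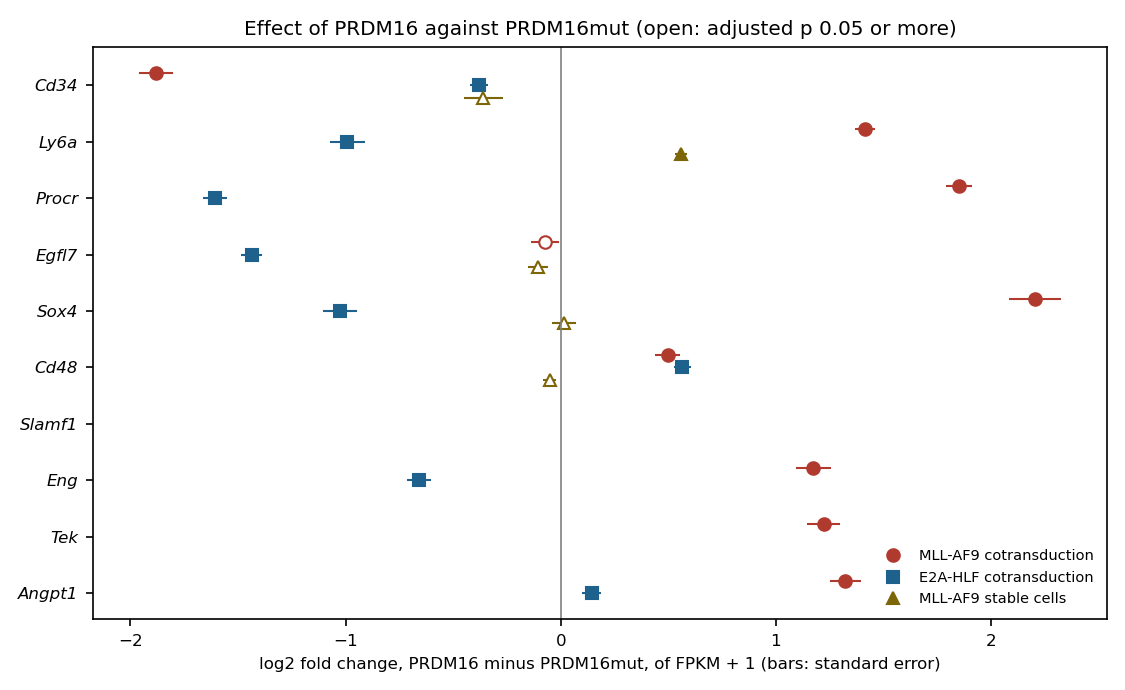
Log2 fold change of FPKM + 1, PRDM16 minus PRDM16mut, for each gene that passed the filter, with standard errors and 1 symbol per experiment; open symbols had an adjusted p of 0.05 or more. Procr, Sox4, Ly6a and Eng lie right of 0 with MLL-AF9 cotransduction and left of 0 with E2A-HLF, and Cd34 lies left of 0 in all 3 experiments.

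The order of the 6 groups differed between genes, and since the tables were normalized separately, levels set across them are a description. E2A-HLF cells with PRDM16mut had the highest mean for Cd34, Ly6a, Procr, Egfl7, Sox4, Slamf1 and Eng. For Cd48 the highest mean was that of E2A-HLF cells with PRDM16 (91.5 FPKM), and for Tek (1.40 FPKM) and Angpt1 (25.4 FPKM) that of MLL-AF9 cotransduced cells with PRDM16. Stable cells held the lowest means of Ly6a, Cd34, Procr, Eng, Slamf1 and Angpt1. PRDM16mut cells of the MLL-AF9 cotransduction were lowest for Sox4 (2.07 FPKM) and Cd48 (17.5 FPKM), and PRDM16 cells of that cotransduction for Egfl7 (7.51 FPKM). Highest and lowest group means lay 115-fold apart for Eng, 54.7-fold for Angpt1, 19.5-fold for Cd34, 15.7-fold for Egfl7 and 13.5-fold for Sox4. Neighbours in the order overlapped for Sox4 between PRDM16 cells of the MLL-AF9 and E2A-HLF cotransductions (mean 13.2 FPKM in each) and between the 2 forms in stable cells, and for Egfl7 between the 2 forms in the MLL-AF9 cotransduction.

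The difference between experiments was tested as a contrast of contrasts in 1 limma fit of 12 libraries, over the 9475 genes that passed in every table, among which are Cd34, Ly6a, Egfl7, Sox4 and Cd48. Between the MLL-AF9 and E2A-HLF cotransductions 4 of these 5 differed, beside 71.4% of all genes. The log2 difference, MLL-AF9 minus E2A-HLF, was 3.23 ± 0.146 for Sox4, 2.40 ± 0.0634 for Ly6a, 1.36 ± 0.0758 for Egfl7 and -1.50 ± 0.115 for Cd34 (limma, Benjamini-Hochberg adjusted p = 9.17e-07 or less). For Cd48 it was -0.07 ± 0.0561 (adjusted p = 0.298). In a fit of the 8 cotransduction libraries, chosen after the data were seen, 7 of 8 genes differed beside 68.8% of all genes, with Procr at 3.46 ± 0.0778, Eng at 1.83 ± 0.102 and Angpt1 at 1.18 ± 0.0836 (adjusted p = 5.72e-06 or less). Of 3239 genes called in both cotransductions 69.8% had opposite signs, and of the 7 genes described here that were called in both, 4 did (Ly6a, Procr, Sox4 and Eng) and 3 did not (Cd34, Cd48 and Angpt1).

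Set against the stable cells, the MLL-AF9 cotransduction gave a different log2 fold change for Sox4 (difference 2.19 ± 0.146), Cd34 (-1.52 ± 0.115), Ly6a (0.85 ± 0.0634) and Cd48 (0.55 ± 0.0561), 4 of 5 beside 64% of all genes (limma, Benjamini-Hochberg adjusted p = 1.33e-05 or less). Egfl7 gave 0.03 ± 0.0758 (adjusted p = 0.734). The E2A-HLF cotransduction differed from the stable cells for Ly6a (-1.55 ± 0.0634), Egfl7 (-1.33 ± 0.0758), Sox4 (-1.04 ± 0.146) and Cd48 (0.62 ± 0.0561), 4 of 5 beside 37% of all genes (adjusted p = 3.29e-04 or less). Cd34 gave -0.02 ± 0.115 (adjusted p = 0.904). These 2 comparisons share the stable cell libraries with each other.

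**Figure D3:**
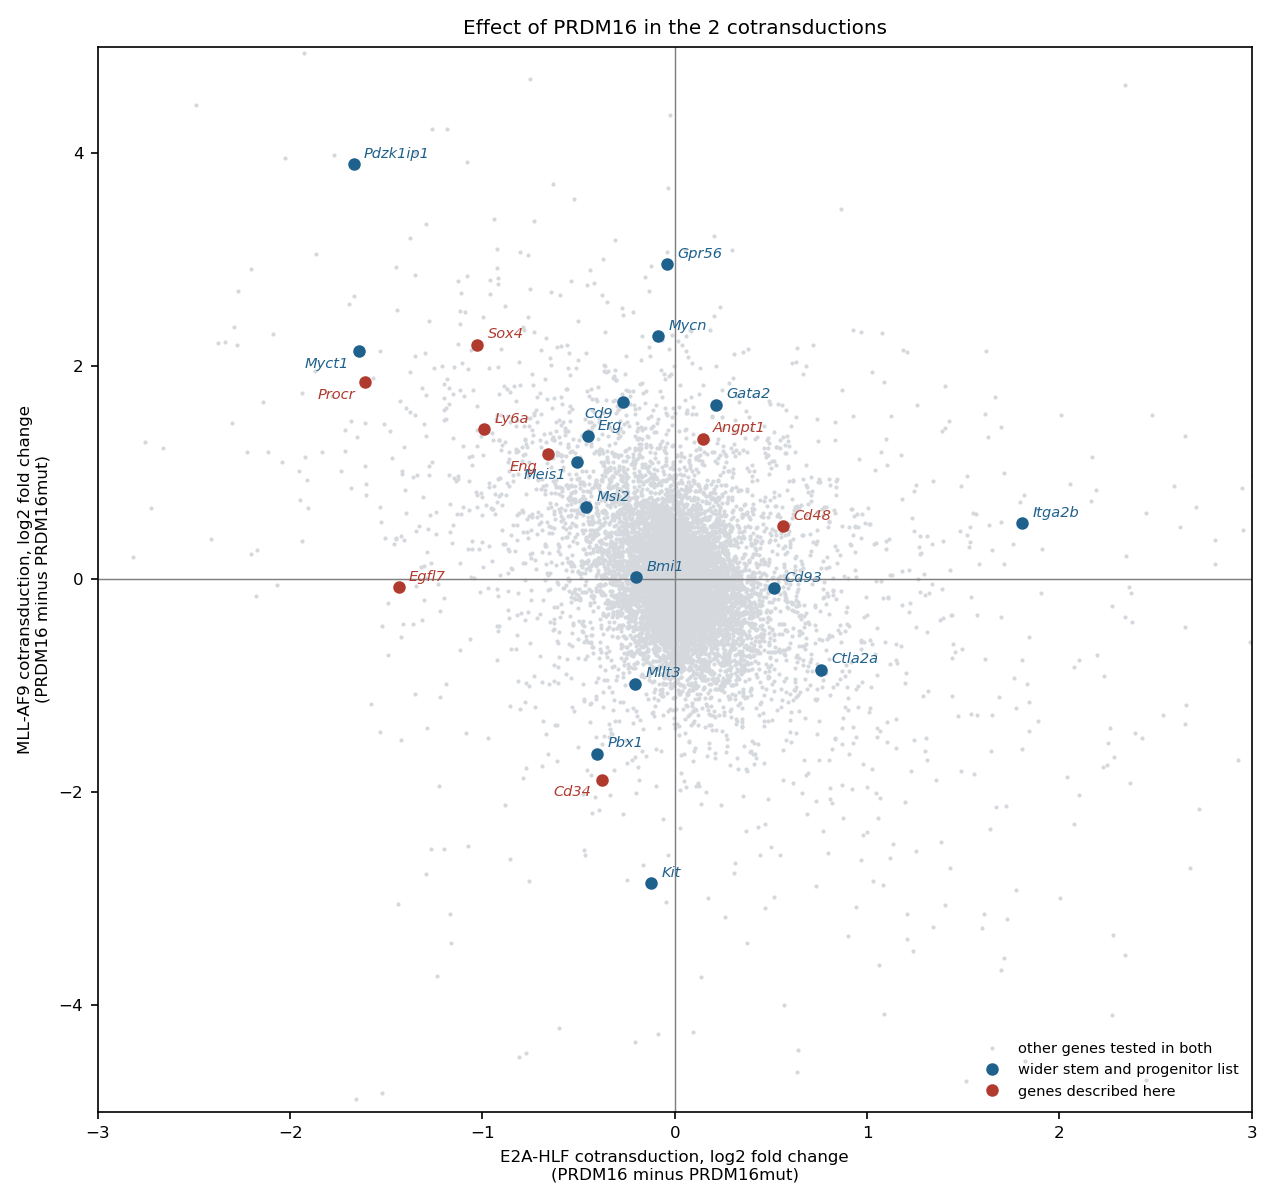
Log2 fold change of FPKM + 1, PRDM16 minus PRDM16mut, in the E2A-HLF cotransduction (horizontal) and in the MLL-AF9 cotransduction (vertical), for 9992 genes tested in both, of which 88 lie outside the window drawn. Sox4, Procr, Ly6a and Eng lie at the upper left with Pdzk1ip1 and Myct1, Cd48 and Angpt1 at the upper right, and Cd34 at the lower left above Kit.

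A wider list of 26 other stem and progenitor genes gave 10 higher and 5 lower with PRDM16 of 17 tested with MLL-AF9 cotransduction (median log2 fold change 0.68). In E2A-HLF cells it gave 4 higher and 11 lower of 20 (median -0.24), and in stable cells 2 higher and 1 lower of 11 (median -0.03), against medians of 0.01 over all genes. Pdzk1ip1, a small membrane protein gene, rose by 3.90 on the log2 scale with MLL-AF9, at 116 and 128 FPKM with PRDM16 and 7.08 and 7.33 FPKM with PRDM16mut. Myct1, a Myc target of endothelium and stem cells, had log2 fold changes of 2.14 with MLL-AF9 and -1.64 with E2A-HLF. Kit was 5.29 and 6.07 FPKM with PRDM16, against 46.8 and 47.5 FPKM with PRDM16mut, in the MLL-AF9 cotransduction, where Prom1, the CD133 gene, also fell (-4.26). Flt3 (-2.51) and Cd27 (-2.42), receptors of multipotent progenitors, fell with E2A-HLF, and Itga2b, the CD41 gene, rose (1.81). In stable cells the called genes were Cd9 (0.33), Cd93 (0.18) and Erg (-0.34), all limma with Benjamini-Hochberg adjusted p of 0.0305 or less.

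Gene families and pathways around the 10 genes are given as counts, to be read against the 35.6% of all genes called higher and 34% lower with MLL-AF9, 22.7% and 21.1% with E2A-HLF, and 4.2% and 2.16% in stable cells. Of the Ly6 family, which holds Ly6a, 4 rose and 3 fell of 8 tested with MLL-AF9, and 3 rose and 3 fell of 7 with E2A-HLF. Ly6f and Ly6g5b passed the filter with MLL-AF9 only through the PRDM16mut libraries. Ly6c1 followed the signs of Ly6a (0.91 with MLL-AF9 and -0.97 with E2A-HLF), while Ly6c2, a monocyte and granulocyte antigen, fell by 7.06 with MLL-AF9. Such near-identical paralogs can share reads, so single values of this family are uncertain. In stable cells 1 of 9 Ly6 genes was called, Ly6a itself. Of the SLAM family, which holds Cd48 and Slamf1, 5 rose and 2 fell of 8 with MLL-AF9, 4 rose of 4 with E2A-HLF, and 2 rose of 6 in stable cells. With MLL-AF9, Slamf7 and Slamf8 passed the filter only through the PRDM16 libraries, and Sh2d1b1 only through the PRDM16mut libraries, which fixed their direction. Cd84, a further SLAM receptor, was called higher in all 3 (0.89, 0.81 and 0.25).

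Around Procr, the list of protein C and thrombin receptors gave 3 higher and 3 lower of 7 with MLL-AF9 and 4 higher and 2 lower of 6 with E2A-HLF. F2r, the thrombin receptor PAR1, rose in both (1.15 and 2.17), and Tfpi, an inhibitor of tissue factor, fell by 2.61 with MLL-AF9 and rose by 4.36 with E2A-HLF. With MLL-AF9, Tfpi and F3 passed the filter only through the PRDM16mut libraries, and Procr only through the PRDM16 libraries. With E2A-HLF, Tfpi and F2rl2 passed only through the PRDM16 libraries. Around Eng, the list of its receptor complex and SMADs gave 9 higher and 4 lower of 16 with MLL-AF9 and 5 higher and 8 lower of 15 with E2A-HLF. Acvrl1, the ALK1 kinase that pairs with endoglin, had 1.01 and 1.14 FPKM with PRDM16 and 0.0479 and 0.0799 FPKM with PRDM16mut in the MLL-AF9 cotransduction, and Id3, a BMP target, rose by 4.54 there. Id2, of the same list, fell by 1.28 there. Acvrl1, Id3 and Smad3 passed the filter there only through the PRDM16 libraries, and Smad7 only through the PRDM16mut libraries, which fixed their direction. Tgfbr2 (0.95) and Id1 (0.92) rose with E2A-HLF, opposite to Eng. In stable cells 0 of 4 protein C list genes and 0 of 12 endoglin list genes were called by limma.

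Of the TIE receptor and angiopoietin list, which holds Tek and Angpt1, 4 rose and 1 fell of 5 tested with MLL-AF9 (Angptl4 fell, by 1.11), and 2 rose of 3 with E2A-HLF. With MLL-AF9, Tek, Tie1 and Angptl6 passed the filter only through the PRDM16 libraries, which fixed their direction. Of this list only Angpt1 and Angptl4 could move either way there. Among CD34-type sialomucins and selectins 7 rose and 1 fell of 8 with MLL-AF9, the 1 that fell being Cd34 itself, while its relative Podxl rose by 2.34. Selp, among those that rose, passed the filter there only through the PRDM16 libraries, which fixed its direction. With E2A-HLF 5 rose and 2 fell of 8, with Podxl at 0.93 and Selp (P-selectin) at -1.18. Of the Sox factors 2 were tested with MLL-AF9 and both rose (Sox4, and Sox6 at 0.88), and 2 with E2A-HLF and both fell (Sox4, and Sox13 at -1.53). Sox6 passed the filter only through the PRDM16 libraries and Sox13 only through the PRDM16mut libraries, so only Sox4 could move either way. Of the Egfl7 and Notch list 1 rose and 1 fell of 4 with MLL-AF9 (Hes1 at 0.58 and Notch1 at -2.20), and 3 fell of 4 with E2A-HLF, Egfl7 among them. None of these 4 lists had a gene called by limma in stable cells.

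Each of the 5 genes tested in all 3 experiments was also matched by its 3 log2 fold changes to 8728 other named genes, by Euclidean distance over the 3 values. Nearest to Ly6a was Itm2a, a membrane protein gene, at a distance of 0.0876, followed by B3gnt3 (0.344) and Apoc1 (0.354). Nearest to Sox4 were Npl (0.182), Gimap1 (0.241) and Pik3ip1 (0.272), and nearest to Cd34 were Agpat2 (0.204), Mcpt8 (0.334) and Snx9 (0.367). Egfl7 had Myl10 (0.175), Acy3 (0.242) and Gstm5 (0.283), and Cd48 had Pnpla7 (0.0264), Tiam1 (0.0840) and Mvd (0.0922).

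Markers of mature cells moved between the same groups as the 10 genes. All-gene shares to set beside the counts below were 35.6% higher and 34% lower with MLL-AF9, and 22.7% and 21.1% with E2A-HLF. In stable cells they were 4.2% and 2.16%. In the MLL-AF9 cotransduction 16 neutrophil granule genes summed to 1408 to 1474 FPKM with PRDM16 and 57608 to 58693 FPKM with PRDM16mut, and 1 rose and 15 fell of 16. Of 14 mast cell and basophil genes, a list that shares Kit and Gata2 with the wider stem cell list, 2 rose and 12 fell, and the sum was 294.9 to 295.8 FPKM with PRDM16 and 2997 to 3033 FPKM with PRDM16mut. Fcnb of the neutrophil list and Cma1, Mcpt4 and Tpsab1 of the mast cell list passed the filter there only through the PRDM16mut libraries. Cd34 and Kit, which fell there, are also carried by mast cell progenitors. Erythroid genes rose in 8 and fell in 1 of 9, and monocyte and macrophage genes rose in 8 and fell in 3 of 12. With E2A-HLF the neutrophil genes ran the other way, 10 higher and 0 lower of 11, at 2021 to 2121 FPKM with PRDM16 and 678 to 693 FPKM with PRDM16mut, and 7 mast cell genes rose and 1 fell of 10. Of the neutrophil genes, Ngp, Lcn2, Cebpe, Mmp8 and Chi3l3 were under 1 FPKM in both PRDM16mut libraries there. Those of them that were tested, Cebpe included, passed only through the PRDM16 libraries, which fixed their direction. The same holds for Hdc, Cd200r3 and Prg2 of the mast cell list, while Cma1 was tested only through the PRDM16mut libraries. Monocyte genes rose in 8 and fell in 3 of 11 with E2A-HLF, erythroid genes rose in 4 and fell in 1 of 11, and megakaryocyte genes rose in 3 and fell in 4 of 8, against 6 and 3 of 9 with MLL-AF9. With E2A-HLF, Fcgr1 of the monocyte list and Car1 of the erythroid list passed the filter only through the PRDM16 libraries. So did Itgb3 and Selp of the megakaryocyte list with MLL-AF9. In stable cells, with fewer calls, neutrophil genes rose in 1 and fell in 3 of 16, monocyte genes rose in 4 of 12, erythroid genes fell in 1 of 2, megakaryocyte genes rose in 1 of 3, and 0 of 5 mast cell genes were called. The part of these cells in the levels of the 10 genes was not tested.

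Ly6a is also a known interferon-inducible gene, so an interferon response list of 23 genes was read beside it. The list rose in 18 and fell in 2 of 22 with MLL-AF9 (sums of 439 to 455 FPKM with PRDM16 and 245 to 251 FPKM with PRDM16mut). Over all genes 35.6% were called higher and 34% lower there, and Ifit3, Oasl1 and Rsad2 passed the filter only through the PRDM16 libraries. The list rose in 0 and fell in 23 of 23 with E2A-HLF (147 to 149 FPKM with PRDM16 and 521 to 535 FPKM with PRDM16mut), beside 22.7% of all genes higher and 21.1% lower. Of the 23, 9 were under 1 FPKM in both PRDM16 libraries and passed the filter only through the PRDM16mut libraries, which fixed their direction. In stable cells, where Ly6a was called higher, 0 of 13 were called and the sums were 101 to 104 FPKM with PRDM16 and 102 to 103 FPKM with PRDM16mut. The part of interferon signalling in Ly6a was not tested.

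Since Tek, Eng, Procr, Egfl7 and Cd34 also mark blood vessels, endothelial genes were read beside them. Of 14 endothelial markers 11 were under 1 FPKM in both PRDM16 libraries of the MLL-AF9 cotransduction and 13 in both PRDM16mut libraries, where the sums were 66.1 to 70.8 FPKM with PRDM16 and 33.4 to 34.0 FPKM with PRDM16mut. Pecam1, which blood cells also express, made up most of the sum, at 61.0 and 64.8 FPKM with PRDM16 and 32.0 and 32.6 FPKM with PRDM16mut. Of 3 endothelial genes tested there 3 rose (Pecam1, Tie1 and Plvap). Tie1 and Plvap passed the filter only through the PRDM16 libraries, which fixed their direction. With E2A-HLF the sums were 148 to 149 FPKM with PRDM16 and 88.9 to 91.0 FPKM with PRDM16mut, with 13 and 12 of 14 markers under 1 FPKM. Pecam1, the 1 gene tested, rose (0.75) and made up most of these sums, with means of 146 and 86.6 FPKM. In stable cells the sums were 4.92 to 5.52 FPKM with PRDM16 and 4.83 to 5.51 FPKM with PRDM16mut, and the 1 gene tested was not called. Cldn5, Emcn and Sox17 were listed at 0 in all 12 libraries, and Cdh5, the endothelial cadherin gene, did not pass 0.0930 FPKM in any. The part of endothelial cells in the levels of Tek, Eng, Procr, Egfl7 and Cd34 was not tested. Stromal markers, tested for 3 genes with MLL-AF9 and 2 with E2A-HLF, gave 3 lower and 2 higher, with Vcam1 at -1.88 and 5.33. With MLL-AF9, Vcam1 and Acta2 passed the filter only through the PRDM16mut libraries. Lymphocyte markers summed to 4.30 to 10.5 FPKM in all libraries, and 1 of 2 tested fell with MLL-AF9 and 1 of 1 with E2A-HLF.

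**Figure D4:**
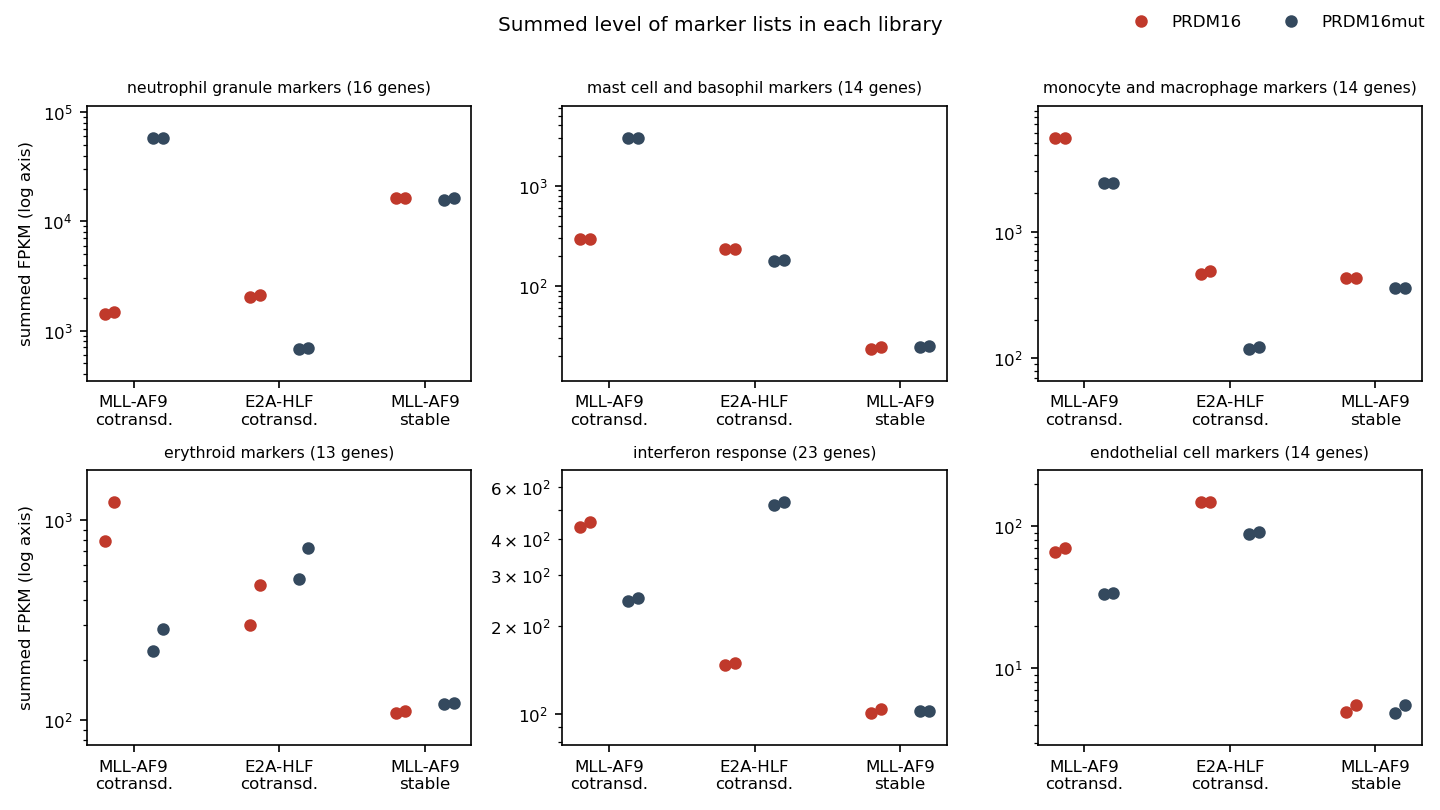
Summed FPKM of 6 marker lists on log axes, each with its own range, with the lower and the higher library of each group as points. Neutrophil sums are lower with PRDM16 in the MLL-AF9 cotransduction (1408 to 1474 against 57608 to 58693 FPKM) and higher with PRDM16 in the E2A-HLF cotransduction (2021 to 2121 against 678 to 693 FPKM), and interferon sums run the opposite way.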

How the data were processed

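RNA was measured in 12 libraries by TruSeq v2 sequencing with oligo(dT) priming, a kit that does not keep strand, per the labels. The authors deposited FPKM values in 3 tables of 23309, 23235 and 23235 entries. The tools were Bowtie2 2.0.0.7, TopHat2 2.0.3 and Cuffdiff with the mm9 build, per the submitters' processing notes, and the sources used here do not give the annotation or the scaling between libraries. Spreadsheet dates had replaced 27, 25 and 25 symbols, none of them a gene described here, and such entries were tested but not named. Read counts and depth are unknown, so no counting interval was computed, and an entry listed at 0 can be a failed estimate.

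Each table was fitted alone on log2(FPKM + 1) with limma 3.58.1 in R 4.3.3 (moderated variance with a trend, two-sided), PRDM16 minus PRDM16mut, 2 libraries against 2, over 11071, 11010 and 10580 entries with at least 1 FPKM in at least 2 of 4 libraries. Adjustment was by Benjamini-Hochberg over all entries tested, and calls were made at an adjusted p under 0.05. With 2 libraries a side, 0.333 is the smallest p an exact permutation test allows. The labels do not say whether the 2 libraries of a group came from separate cultures, so p-values measure only the spread between them, which may be technical. Differences between experiments were contrasts of contrasts in a fit of 12 libraries. Alternatives were a pseudocount of 0.1, no filter, a filter at 5 FPKM, quantile normalization, a replicate block, a fit of all 12 libraries, each library left out, and, added after the data were seen, a fit of 8 libraries. The 10 genes and all gene lists were chosen with earlier results of these data known. Every one of the 10 is named, from each list up to 4 called genes of smallest p per comparison are named, and a few further genes were chosen after their values were seen. The scripts were tested on simulated data. Sequences are RefSeq's (GRCm38.p6). Plots used matplotlib 3.10.9 and tables pandas 2.3.3.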

Additional observations from a re-analysis of the deposited data

Results flagged for a closer look

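The effect of PRDM16, as log2 fold change against PRDM16mut, differed between experiments by the contrast of contrasts in limma (Benjamini-Hochberg adjusted p under 0.05) for the following genes. Between the MLL-AF9 and the E2A-HLF cotransduction the difference was 3.23 for Sox4, 2.40 for Ly6a, 1.36 for Egfl7 and -1.50 for Cd34. In the fit of the 8 cotransduction libraries it was 3.46 for Procr, 1.83 for Eng and 1.18 for Angpt1. Between the MLL-AF9 cotransduction and the stable cells it was 2.19 for Sox4, 0.85 for Ly6a, 0.55 for Cd48 and -1.52 for Cd34. Between E2A-HLF cotransduced and stable cells it was 0.62 for Cd48, -1.04 for Sox4, -1.33 for Egfl7 and -1.55 for Ly6a. Neutrophil, mast cell and interferon genes moved between the same libraries of the cotransductions, with values given above, and their part in these differences was not tested.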

How the results depend on the processing

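For single genes, 83 of 83 alternative values in the MLL-AF9 cotransduction kept direction and call, as did 71 of 77 in the E2A-HLF cotransduction, where the other 6 were the Angpt1 calls lost under quantile normalization, the replicate block and each library left out. In stable cells 47 of 49 did. Cd34 passed there in the fit of 12 libraries, and Sox4 ran from -0.056 (without PRDM16mut replicate 1) to 0.084 with single libraries left out. Among differences between experiments 190 of 197 did, and the 7 that turned sign had all missed the threshold: Cd34 (E2A-HLF minus stable) at 0.064 with a pseudocount of 0.1 and from -0.13 to 0.092 without single libraries, Cd48 (MLL-AF9 minus E2A-HLF) at 0.032 with quantile normalization, and Egfl7 (MLL-AF9 minus stable) from -0.016 to 0.078 without single libraries. Called counts of the 10 genes moved over 1.5 times in 2 settings that test fewer of them: with MLL-AF9, 8 became 5 at a minimum of 5 FPKM and 4 in the fit of 12 libraries, and with E2A-HLF 8 became 5 in that fit. Otherwise they were 8 or 9 with MLL-AF9 and 7 or 8 with E2A-HLF. In stable cells the count was 2 in the fit of 12 libraries. In the differences it was 9, 9 and 8 with no filter and 7 in the fit of 8 libraries. All calls in stable cells went from 673 to 104 with no filter, 298 in the fit of 12 libraries and 65 to 139 with a library left out, so the background there is less firm. A library left out leaves 1 library in a group, which is assumed to vary like the others. The replicate block gave 7812, 4354 and 664 calls over all genes with MLL-AF9, with E2A-HLF and in stable cells. Same-numbered libraries correlated at 0.07, 0.29 and 0.32 in their deviations, and the labels do not pair them. Depth is unknown, and it limits Slamf1, Tek and, in stable cells, Procr, Eng and Angpt1 the most.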
